A study of Homo sapiens with 53 samples.

Results

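The 4 HOX gene clusters of the human genome were examined in lists of chromatin immunoprecipitation sequencing (ChIP-seq) peaks from HEK293T cells, a human embryonic kidney cell line. The windows were set by hg19 position: chr7:27120000-27250000 for HOXA, chr17:46600000-46815000 for HOXB, chr12:54325000-54455000 for HOXC and chr2:176945000-177065000 for HOXD. Together they span 595 kb and hold 38 member genes, of 20052 protein-coding genes in the RefSeq table used for names: 10 genes each in HOXA and HOXB, and 9 each in HOXC and HOXD. All peaks that overlapped a window by at least 1 bp were taken, whatever their strength. The members themselves were chosen with earlier results of these data known.

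The study compared cells given DMSO, the solvent, with cells given BPK-25 at 30 µM, both for 72 h. BPK-25 is an electrophilic small molecule known to lower the levels of subunits of the NuRD complex; protein levels were not analysed here. Unmodified HEK293T cells were immunoprecipitated for CTCF or for MBD3, and derived HEK293T lines with Flag-tagged TET1, TET2 or TET3 were immunoprecipitated for Flag, so the TET data describe tagged proteins in separate lines. Among the 53 labelled samples, 29 were immunoprecipitates and 24 sonicated inputs; each immunoprecipitate group had 3 labelled replicates, except TET2 in DMSO with 2.

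Each target and treatment is represented by 1 peak list, named in the labels of all its replicates. By its name each list was called on its replicates together, though the DMSO TET2 list names a replicate that the labels lack. Differences between treatments therefore have no replicate check, no test between DMSO and BPK-25 was possible, and nothing below carries a p-value. Shares are given with exact Clopper-Pearson 95% intervals and fragment pileups with exact Poisson intervals, both covering counting error only. The depth of the pooled libraries is reflected in the genome background of each list, in fragments. In DMSO it was 3.68 for CTCF, 3.21 for MBD3, 1.85 for TET1 and 1.70 for TET3; in BPK-25 it was 2.58, 2.57, 1.75 and 1.65 in that order.

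HOX genes encode homeodomain transcription factors that give cells their position along the body axis, and in embryos the genes of a cluster are switched on in the order in which they lie on the chromosome. In cells where part of a cluster is silent, CTCF, a zinc-finger protein that halts loop-extruding cohesin, is known to bind between the genes and to mark the borders of active and Polycomb-repressed chromatin. MBD3 is a subunit of NuRD, which joins nucleosome remodelling to histone deacetylation, and, unlike its relative MBD2, it binds methylated CpG poorly. TET1, TET2 and TET3 oxidise 5-methylcytosine in CpG, and TET1 and TET3 carry CXXC zinc fingers that bind CpG-rich DNA. HOX clusters are among the most CpG-rich and least repeat-filled gene neighbourhoods of the genome.

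The promoters of the members show that CpG content. RefSeq promoter entries on GRCh38.p14, each 300 bases from 250 before to 50 after a transcript start, were found for 20 of the 38 members, giving 26 distinct promoters: 16 in HOXA, 8 in HOXD and 1 each in HOXB and HOXC. Their median CpG number was 22.5, with a range of 0 to 44, against a median of 14 over 34943 promoters of the table. Of the 26, 22 (84.6%) held 10 or more CpG, against 56.3% of all promoters, although the median GC content was much alike at 58.0% and 58.7%. The promoter with the most CpG of each cluster is printed here, 5′ to 3′ on the strand of the gene, with every CpG in capitals. HOXC4 shares its entry with HOXC5.
HOXA13 (chr7:27200042-27200341, minus strand): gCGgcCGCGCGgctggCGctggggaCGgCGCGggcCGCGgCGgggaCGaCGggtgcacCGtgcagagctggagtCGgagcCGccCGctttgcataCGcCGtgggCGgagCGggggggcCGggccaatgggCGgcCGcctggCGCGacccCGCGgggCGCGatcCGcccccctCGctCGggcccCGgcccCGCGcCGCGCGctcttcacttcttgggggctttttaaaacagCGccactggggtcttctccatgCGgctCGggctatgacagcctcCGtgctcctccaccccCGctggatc
HOXB1 (chr17:48530962-48531261, minus strand): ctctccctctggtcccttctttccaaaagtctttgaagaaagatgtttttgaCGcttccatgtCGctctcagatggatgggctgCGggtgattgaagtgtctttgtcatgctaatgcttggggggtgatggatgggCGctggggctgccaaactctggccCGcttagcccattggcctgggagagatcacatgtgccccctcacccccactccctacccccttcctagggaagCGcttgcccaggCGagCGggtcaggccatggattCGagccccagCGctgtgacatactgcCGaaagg
HOXC4 (chr12:54016638-54016937, plus strand): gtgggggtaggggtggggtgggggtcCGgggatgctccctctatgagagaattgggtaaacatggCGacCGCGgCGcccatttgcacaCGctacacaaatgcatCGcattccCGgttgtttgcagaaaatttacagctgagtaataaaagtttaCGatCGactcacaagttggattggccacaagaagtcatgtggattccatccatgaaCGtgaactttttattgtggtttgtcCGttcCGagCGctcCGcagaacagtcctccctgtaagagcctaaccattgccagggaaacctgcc
HOXD1 (chr2:176188418-176188717, plus strand): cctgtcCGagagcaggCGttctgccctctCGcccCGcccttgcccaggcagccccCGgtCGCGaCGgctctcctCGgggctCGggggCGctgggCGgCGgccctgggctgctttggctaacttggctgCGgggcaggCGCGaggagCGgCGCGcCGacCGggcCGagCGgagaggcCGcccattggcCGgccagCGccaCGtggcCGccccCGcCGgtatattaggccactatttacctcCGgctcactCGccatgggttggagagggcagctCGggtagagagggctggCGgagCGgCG
HOXA13, which patterns limbs and the urogenital tract, had 44 CpG, and HOXD1, an anterior member of its cluster, had 36. HOXC4 had 15, and HOXB1, which specifies part of the hindbrain, had 11. The words AGGGGGC and AGGTGGC, forms of the core of the CTCF motif, were searched on both strands; 5 of the 26 HOX promoters (19.2%) held at least 1, against 20.0% of all promoters. These positions are on another build than the peaks, so no peak was assigned to a promoter, and regions below are given by hg19 position only.

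HOX windows were dense in peaks of CTCF, MBD3, TET1 and TET3. In DMSO they held 124 of 99587 CTCF peaks, 261 of 82358 MBD3 peaks, 16 of 5951 TET1 peaks, 69 of 14129 TET3 peaks and 0 of 1233 TET2 peaks. Per 100 kb this came to 43.9 MBD3 peaks, against 2.69 over all chromosomes, and 20.8 CTCF peaks, against 3.24. TET3 had 11.6 peaks per 100 kb against 0.463, and TET1 2.69 against 0.194. TET2 had 0.0399 peaks per 100 kb over all chromosomes, so its count of 0 in the windows lies near the background. MBD3 peaks covered 137 kb, or 23.0% of the windows, against 1.15% of the chromosomes.

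The 4 clusters were not equally dense. MBD3 reached 55.4 peaks per 100 kb in HOXC and 53.1 in HOXA, and 35.8 in both HOXB and HOXD. CTCF had 26.9 peaks per 100 kb in HOXA, 26.2 in HOXC, 18.3 in HOXD and 15.3 in HOXB. The HOXB window holds a stretch of 36.7 kb, chr17:46756235-46792921, without any CTCF or MBD3 peak in DMSO in the part of the window toward HOXB13, its last member in chromosomal order. The local background at the summits, a measure of signal in the region around a peak, had a median of 1.69 times the genome background at HOX CTCF peaks and 1.76 at HOX MBD3 peaks, against 1.43 and 1.58 in the whole lists. It did not exceed 4.74 times the genome background at any CTCF, MBD3, TET1 or TET3 peak in the windows.

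**Figure D1:**
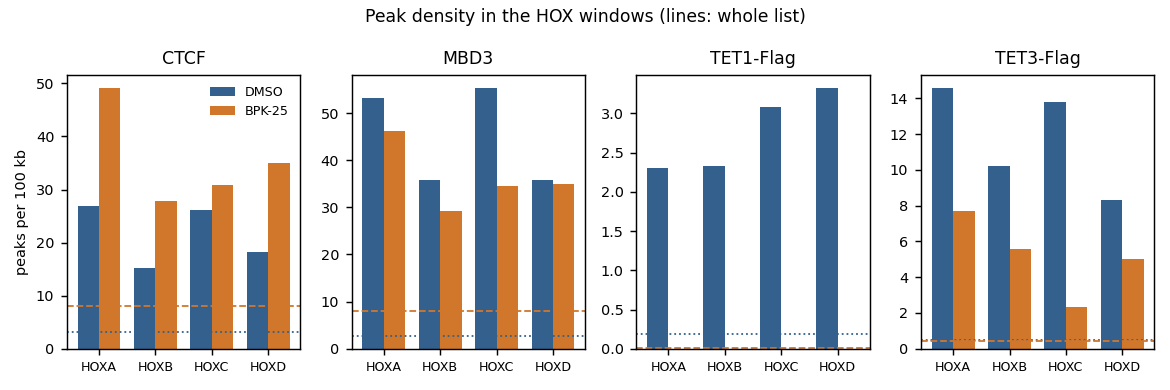
Peaks per 100 kb in each HOX window, for 4 targets in DMSO (blue bars) and BPK-25 (orange bars); dotted blue and dashed orange lines give the density over all chromosomes in the same lists. Every DMSO bar stands above its line; BPK-25 bars are higher than DMSO bars for CTCF in all 4 clusters, and lower for MBD3 and TET3.

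With BPK-25 the HOX windows lost MBD3 peaks while the rest of the genome gained them. MBD3 peaks went from 261 to 210, a ratio of 0.805, whereas the whole list went from 82358 to 243213, a ratio of 2.95. CTCF peaks rose in number from 124 to 206, a ratio of 1.66 against 2.46 over the list. TET3 peaks went from 69 to 31, a ratio of 0.449 against 0.946, and TET1 peaks from 16 to 0, against a ratio of 0.0751 over the list. TET2 had no peak in the windows in either treatment. The direction rested on the calls for 2 targets: with intervals within 500 bp merged MBD3 went from 161 to 171 peaks (1.06, list 2.69), and at a -log10 q of at least 10 CTCF went from 82 to 54 (0.659, list 0.590). At that limit TET3 went from 16 to 3 (0.188, list 1.49).

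The length covered by MBD3 peaks showed the same contrast more strongly. MBD3 peaks covered 137 kb of the windows in DMSO and 73.4 kb in BPK-25, a ratio of 0.536, whereas over the list covered length had a ratio of 2.52. Peaks of 1000 bp or more numbered 34 of 261 in DMSO (13.0%, against 7.35% of the list) and 3 of 210 in BPK-25 (1.43%, against 3.75%). The wide peaks mostly became shorter peaks: 28 of the 34 overlapped an MBD3 peak in BPK-25 (82.4%, interval 65.5 to 93.2), against 97.5% of wide peaks in the list. The widest, chr17:46673452-46675903 in HOXB, measured 2452 bp with a fold enrichment of 6.06.

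**Figure D2:**
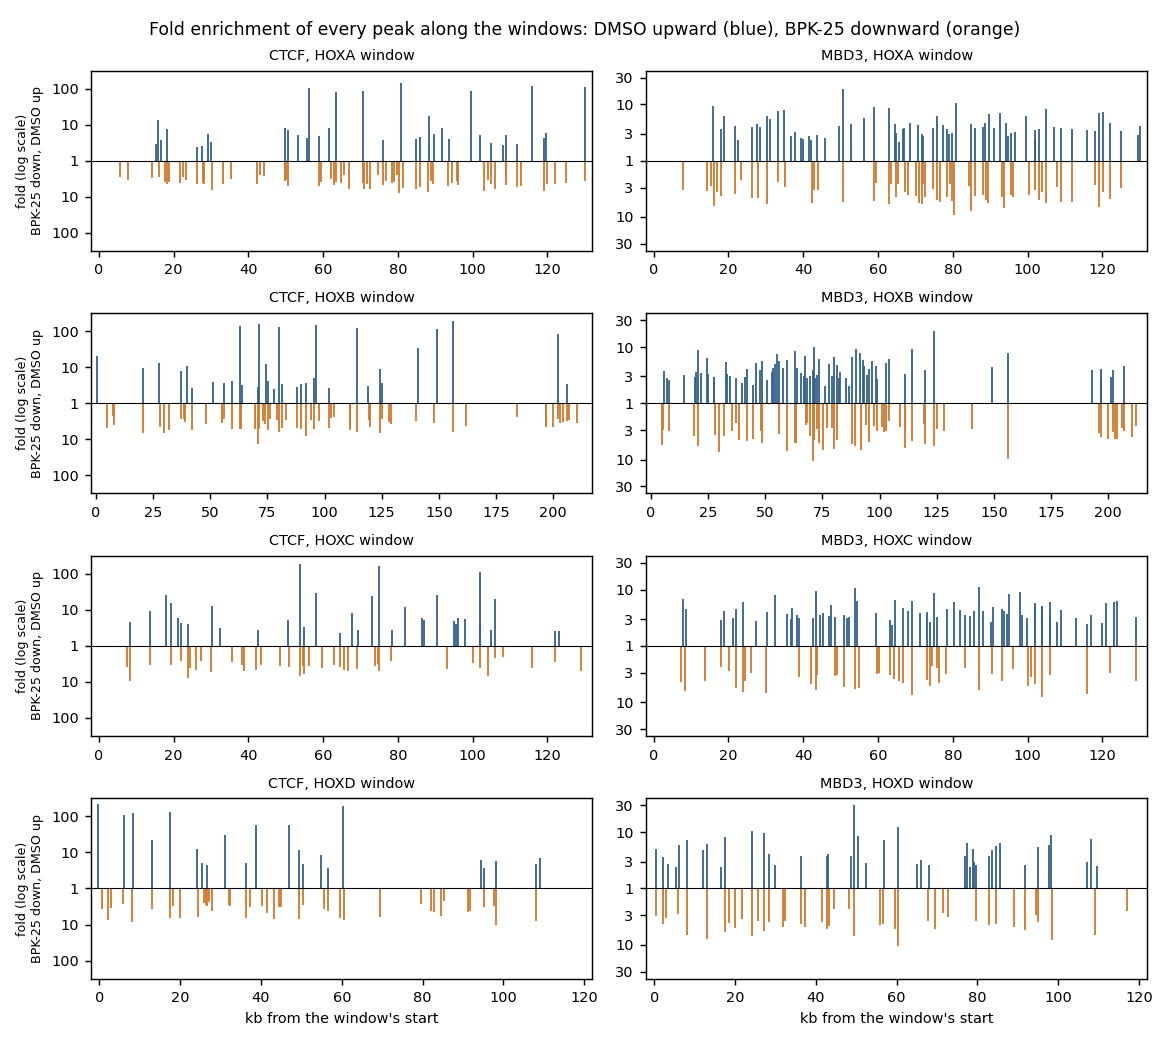
Fold enrichment (log scale) of every CTCF peak (left) and MBD3 peak (right) along the 4 windows, in kb from the window's start; DMSO peaks point up in blue and BPK-25 peaks down in orange. CTCF peaks reach a fold of 227 in DMSO and 13.6 in BPK-25.

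The 4 clusters are given in turn. In HOXC MBD3 peaks went from 72 to 45, a ratio of 0.625 (interval 0.421 to 0.920), and covered MBD3 length from 37.1 to 14.9 kb, a ratio of 0.403. In HOXA the MBD3 number went from 69 to 60 (ratio 0.870, interval 0.605 to 1.25), in HOXB from 77 to 63 (0.818, interval 0.577 to 1.16) and in HOXD from 43 to 42 (0.977, interval 0.623 to 1.53). The intervals of the 4 clusters overlap one another, so the order of the clusters is not set by these counts. With intervals within 500 bp merged the order was another: HOXA had a ratio of 0.840, HOXC of 0.900 (40 to 36 peaks), HOXB of 1.20 and HOXD of 1.50, so HOXC was then the cluster nearest to no change. TET3 in HOXC went from 18 peaks to 3, a ratio of 0.167, against ratios of 0.526 in HOXA, 0.545 in HOXB and 0.600 in HOXD. CTCF in HOXC went from 34 to 40 (1.18), against 1.83 in HOXA, 1.82 in HOXB and 1.91 in HOXD. No intervals were computed for these TET3 and CTCF ratios, which rest on few peaks, so they set no order of the clusters either.

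Along the windows the loss of MBD3 peaks was spread out. Of 60 bins of 10 kb, 32 had fewer MBD3 peaks in BPK-25, 13 the same number and 15 more; CTCF had more in 46 and fewer in 6. HOXC had fewer MBD3 peaks in 8 of its 13 bins and more in 1. The bins between 80 and 100 kb from the start of the HOXC window stood out: CTCF peaks there went from 3 and 5 to 0 and 1, and MBD3 peaks from 7 and 9 to 2 and 3. TET3 had fewer peaks in 29 of the 60 bins and more in 7.

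**Figure D3:**
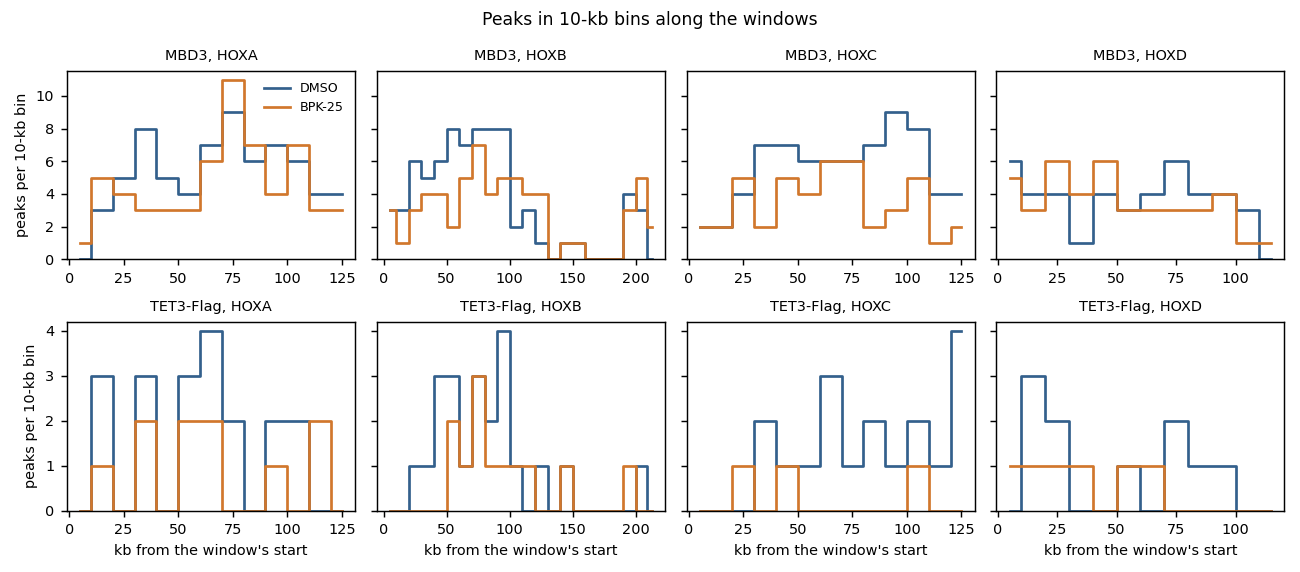
Number of MBD3 peaks (upper row) and TET3-Flag peaks (lower row) in consecutive 10-kb bins along each window, DMSO in blue and BPK-25 in orange. The blue line is above the orange one over most of HOXC, and both lines are at 0 between 160 and 190 kb of HOXB.

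CTCF peaks in the HOX windows, taken at all strengths, had a lower median fold in DMSO than those of the list. Their median fold enrichment was 5.67 (quartiles 3.73 and 23.2), against 11.3 over the list, and 44 of 124 had a fold of 10 or more (35.5%, against 53.2%). The highest HOX value below that limit was 9.55 and the lowest above it 10.9. Among the clusters HOXD had the highest median, 10.2, with 11 of 22 peaks at 10 or more; the others had medians of 5.32 (HOXA), 4.97 (HOXB) and 5.52 (HOXC). In BPK-25 the median was 4.08, against 3.71 over the list, and 2 of 206 peaks had a fold of 10 or more (0.971%, against 0.942%).

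The strongest CTCF sites of each cluster were among the strongest of the genome in DMSO. In HOXB, chr17:46755523-46756234 had a fold of 187, rank 725 of the list, and a summit pileup of 571 times the genome background (interval 547 to 596). It borders the peak-free stretch of that cluster. In HOXD, chr2:177004941-177005907 had a fold of 196 and rank 1268, and chr2:176944287-176945739, across the start of the window, where HOXD13 is the first member, a fold of 227 and rank 2042. In HOXA, chr7:27200209-27201071 had a fold of 141 and rank 1548. In HOXC, chr12:54378666-54379608 had a fold of 189 and rank 2485.

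At these 5 sites CTCF signal in BPK-25 was lower by more than an order of magnitude. The fold was 6.18 at the HOXB site, 7.29 and 6.15 at the HOXD sites, 7.88 at the HOXA site and 6.70 at the HOXC site, each the value of an overlapping BPK-25 peak. At the HOXA site that peak had its summit 356 bp from the DMSO summit, and at the others 8 to 108 bp away. Of the remaining 7 top sites, 6 also overlapped a weak BPK-25 peak: chr17:46671211-46671830 in HOXB went from a fold of 161 to 5.23, chr17:46662373-46663485 in HOXB from 139 to 5.27, chr12:54399516-54400268 in HOXC from 167 to 4.91, and chr2:176962047-176962760 in HOXD from 134 to 6.73. In HOXA, chr7:27190019-27191131, of fold 86.2, overlapped a pair of BPK-25 peaks, of fold 4.17 with the summit 4 bp away and of fold 6.15 with the summit 383 bp away, and chr7:27249850-27250621, at the HOXA13 end, went from 112 to 3.74 with summits 10 bp apart. The other, chr12:54426294-54426762 in HOXC, had a fold of 109 and overlapped no CTCF peak in BPK-25.

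Overlap with a BPK-25 peak was more common for HOX CTCF peaks than over the list. Of the 124 DMSO peaks 79 overlapped a BPK-25 CTCF peak (63.7%, interval 54.6 to 72.2), against 39.2% of the list. The same peaks overlapped a BPK-25 MBD3 peak in 85 cases (68.5%, interval 59.6 to 76.6), against 40.2%. The overlap was therefore not particular to the CTCF list. BPK-25 CTCF peaks covered 11.4% of the windows, against 2.83% of the chromosomes. More overlap by position alone is therefore possible in the windows, and that share was not computed. Strong peaks (fold of 10 or more) overlapped a BPK-25 CTCF peak in 28 of 44 cases (63.6%, against 34.7%) and weaker ones in 51 of 80 (63.8%, against 44.4%). By cluster the share was 75.8% in HOXB, 72.7% in HOXD, 65.7% in HOXA and 44.1% in HOXC (interval 27.2 to 62.1). Of the 28 retained strong peaks, 16 had summits within 100 bp in both treatments (57.1%, against 54.3%). At a -log10 q of at least 10 in both lists the HOX share was 29.3%, against 16.8%. New CTCF peaks, those overlapping no DMSO peak, were 122 of 206 (59.2%, interval 52.2 to 66.0), against 83.3% of the list. These shares depend on the number ratios given above, 1.66 in the windows and 2.46 over the list.

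Where CTCF was called at the same summit in both treatments, the change depended on the strength in DMSO. At the 16 strong HOX sites with summits within 100 bp, the median pileup over genome background was 289.8 in DMSO and 10.5 in BPK-25, and it was lower in BPK-25 at all 16. Over the list the medians at such strong sites were 178 and 10.1, with the BPK-25 value higher at 25 of 9983 (0.250%), so the direction at the HOX sites is that of the list. The median ratio was 0.0343, with a range of 0.0216 to 0.535. At 36 weaker sites the medians were 8.28 and 9.31, with the BPK-25 value higher at 23 (63.9%, against 63.7% of such sites in the list). Since the fold in DMSO sorted these sites, this split describes them and is no test.

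**Figure D4:**
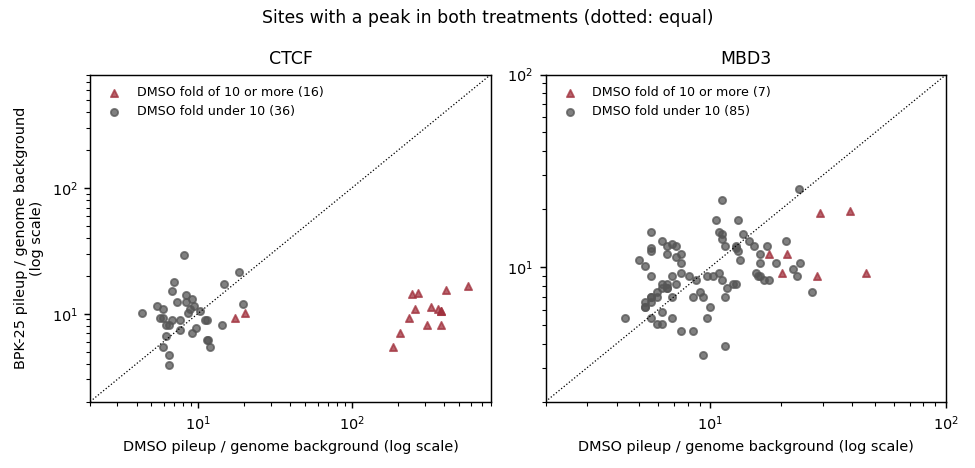
Summit pileup over genome background in DMSO (x) and BPK-25 (y), both on log scales, for HOX sites with CTCF (left) or MBD3 (right) summits within 100 bp in both treatments; red triangles had a DMSO fold of 10 or more, grey circles a lower fold. The CTCF triangles lie under the dotted line of equal values, most of them far to the right, while grey circles scatter around it.

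Strong CTCF sites without a BPK-25 peak of CTCF were found in every cluster. In HOXA, chr7:27235795-27236226 had a fold of 116 in DMSO, an MBD3 peak of fold 3.44 in DMSO, and neither a CTCF nor an MBD3 peak in BPK-25. In HOXD, chr2:176991661-176992160 had a fold of 56.2 and in HOXC chr12:54382924-54383461 one of 29.0, each with no overlapping peak in any other list. In HOXB, chr17:46600287-46600780, near the start of the window, had a fold of 19.9 and also stood alone. These 4 are the strongest peaks of their clusters that had no CTCF peak of BPK-25 nearer than 1000 bp. In total 13 of the 44 strong sites had neither a CTCF nor an MBD3 peak in BPK-25 (29.5%, against 59.9%).

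The strongest new CTCF peaks were modest by comparison. They were chr2:176946972-176947293 in HOXD with a fold of 7.39, chr17:46629498-46629874 in HOXB with 6.89, chr7:27186925-27187262 in HOXA with 6.13 and chr12:54454129-54454488 in HOXC with 4.92. Each coincided with an MBD3 peak of BPK-25, of fold 4.24, 7.43, 3.59 and 4.14 in the same order. The highest CTCF fold of the windows in BPK-25, 13.6, was at chr17:46670526-46670889 in HOXB, at a site also called for CTCF and MBD3 in DMSO and for MBD3 in BPK-25 with a fold of 10.5.

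CTCF and MBD3 peaks coincided in the HOX windows more often than over the list. In DMSO 106 of 124 CTCF peaks overlapped an MBD3 peak (85.5%, interval 78.0 to 91.2), against 36.9%, and the clusters ranged from 81.8% in HOXD to 88.6% in HOXA. Strong and weaker CTCF peaks were alike, with 37 of 44 (84.1%) and 69 of 80 (86.2%), each against 36.9%. At the strong sites the MBD3 summit lay within 50 bp of the CTCF summit in 29 of 44 (65.9%, against 25.5%). In BPK-25 173 of 206 CTCF peaks overlapped MBD3 (84.0%, interval 78.2 to 88.7), against 69.0%. The BPK-25 comparison turned at a -log10 q of at least 10, where 32 of 54 overlapped (59.3%, against 70.7%); in DMSO it kept its side at that limit (58.5%, against 21.2%). With MBD3 peaks covering 23.0% of the windows, more overlap by position alone is possible here than elsewhere, and that share was not computed. The labels give no separate HEK293T inputs for CTCF and MBD3, so the lists of a treatment share them. The part of shared inputs in the overlap was not tested.

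Peaks with both proteins in DMSO were found again more often. CTCF peaks with MBD3 were retained in 76 of 106 cases (71.7%, interval 62.1 to 80.0), against 76.8% of the list, and those without in 3 of 18 (16.7%, interval 3.58 to 41.4), against 17.3%. MBD3 peaks with CTCF were retained in 79 of 98 cases (80.6%, interval 71.4 to 87.9), against 77.7%, and those without in 65 of 163 (39.9%, interval 32.3 to 47.8), against 48.9%. Over the 4 clusters together the shares for CTCF lay near those of the list within each class. A smaller share of CTCF peaks than in the list was without MBD3. HOXC differed: 13 of 28 CTCF peaks with MBD3 were retained (46.4%, interval 27.5 to 66.1), and 2 of 6 without (33.3%, interval 4.33 to 77.7). With MBD3 the share was 74.2% in HOXA, 82.8% in HOXB and 88.9% in HOXD. The interval of MBD3 peaks without CTCF lay under the list's value.

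MBD3 peaks of the HOX windows had a median fold of 3.96 in DMSO (quartiles 3.09 and 5.76), against 3.65, and of 4.20 in BPK-25, against 3.77. Peaks of fold 10 or more numbered 8 of 261 (3.07%, against 6.32%). The strongest was chr2:176994161-176994769 in HOXD with a fold of 29.9, rank 240 of the list, and a pileup of 45.8 times the genome background (interval 38.7 to 53.8). CTCF had a fold of 11.8 there, with its summit 5 bp away. In BPK-25 MBD3 had a fold of 7.01 and CTCF of 6.99 at this site.

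Other leading MBD3 sites also had CTCF of low or moderate fold. In HOXB, chr17:46723491-46724947 had an MBD3 fold of 19.0 (rank 648) with CTCF at 8.91 and TET3 at 5.66, and went to 5.65 for MBD3 in BPK-25. In HOXA, chr7:27170473-27171087 had an MBD3 fold of 18.6 (rank 1366) with CTCF at 7.31, and went to 5.32. In HOXC, chr12:54411166-54412715 had 11.3, with a pair of CTCF peaks inside it, of fold 5.38 with the summit 9 bp away and of fold 5.93 with the summit 573 bp away, and went to 6.18. Further leading MBD3 sites coincided with very strong CTCF peaks. MBD3 folds there were 12.2 at chr2:177005122-177005856 in HOXD, 10.6 at chr12:54378682-54378902 in HOXC and 10.5 at chr7:27200211-27201006 in HOXA. In BPK-25 they were 10.5, 5.79 and 9.17 in the same order, the last with its summit 428 bp away. MBD3 fell further at other named sites on very strong CTCF peaks. In HOXB it went from 9.89 to 4.50 at chr17:46671243-46671627 and from 9.35 to 4.65 at chr17:46713931-46714289. At chr12:54399318-54400129 in HOXC it went from 8.73 to 2.28, with summits 451 bp apart. CTCF folds in DMSO at these sites were 161, 122 and 167 in that order.

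MBD3 retention in the windows lay under that of the list, except where intervals within 500 bp were merged. Of 261 DMSO peaks 144 overlapped a BPK-25 MBD3 peak (55.2%, interval 48.9 to 61.3), against 61.4%, including 8 of the 8 peaks of fold 10 or more (96.4% in the list). By cluster the share was 68.1% in HOXA, 55.8% in HOXD, 53.2% in HOXB and 44.4% in HOXC (interval 32.7 to 56.6). Of 210 BPK-25 MBD3 peaks 53 were new, overlapping no DMSO peak (25.2%, interval 19.5 to 31.7), against 78.2% of the list. These shares depend on the number ratios given above, 0.805 in the windows and 2.95 over the list. They are therefore no separate result. With intervals within 500 bp merged the comparison of retention turned, to 68.3% against 61.9% in the list. The retained share fell to 33.7% where 50% of a peak had to be covered, against 52.8%, and to 29.9% with equal numbers of strongest peaks in both lists, against 41.7%. At a -log10 q of at least 5 it was 47.9%, against 58.5%, and at 10 it was 40.4%, against 51.5%. In HOXA 8 of 60 BPK-25 peaks were new (13.3%) and in HOXD 16 of 42 (38.1%). At 92 sites with summits within 100 bp in both treatments the median pileup over genome background was 9.65 in DMSO and 8.96 in BPK-25, against 8.72 and 10.5 over the list. A BPK-25 CTCF peak overlapped 137 of the 261 DMSO MBD3 peaks (52.5%, interval 46.2 to 58.7), against 60.3% of the list.

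The strongest MBD3 peaks that had no counterpart in BPK-25 nearer than 1000 bp were of moderate strength. In HOXC, chr12:54422363-54423033 had an MBD3 fold of 9.06 with CTCF at 5.65, TET1 at 4.86 and TET3 at 7.94, and no list had a peak there in BPK-25. In HOXD, chr2:177022343-177022774 had 6.52 and overlapped a TET3 peak of fold 6.68 with its summit 555 bp away. That TET3 summit lay 27 bp from the summit of another MBD3 peak, of fold 2.44. In HOXB, chr17:46623653-46624763 had 6.36 alone. In HOXA, chr7:27175483-27176576 had 5.76 over a CTCF peak of fold 104. The strongest new MBD3 peak was chr17:46629478-46629893 in HOXB with a fold of 7.43, on the new CTCF peak named above; those of HOXD, HOXC and HOXA had folds of 5.10, 4.19 and 3.32.

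TET1 peaks of the HOX windows were few and weak, and none remained with BPK-25. The 16 DMSO peaks, 3 in HOXA, 5 in HOXB and 4 each in HOXC and HOXD, had folds between 3.17 and 5.91. All 16 overlapped an MBD3 peak (interval 79.4 to 100.0), against 83.2% of the list, 11 a TET3 peak (68.8%, against 59.3%) and 9 a CTCF peak (56.2%, against 67.6%). MBD3 peaks covered 23.0% of the windows, against 1.15% of the chromosomes, and overlap by position alone was not computed. The strongest TET1 peak was chr7:27172600-27172829 in HOXA with a fold of 5.91, beside MBD3 at 4.44 and TET3 at 4.09. No TET1 peak of BPK-25 lay in a window. None of the 16 could therefore be retained, and this share adds nothing to the count. Over the list 4.59% were retained and TET1 number had a ratio of 0.0751, so the loss in the windows lies near the background.

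TET3 peaks had a median fold of 4.83 in DMSO, against 4.38, and lay on MBD3 peaks in 64 of 69 cases (92.8%, interval 83.9 to 97.6), against 82.6%. Fewer lay on CTCF peaks, 27 of 69 (39.1%, interval 27.6 to 51.6), against 58.1%. The limit on overlap with MBD3 by position alone, given for TET1, holds for TET3 too. The strongest TET3 peaks were chr12:54427183-54427609 in HOXC with a fold of 12.4, and chr12:54445802-54446333 in HOXC and chr2:176968872-176969464 in HOXD with 11.5 each. The HOXD site also held TET1 at 3.17, MBD3 at 10.5 and CTCF at 12.4 in DMSO, and remained in BPK-25 with TET3 at 5.11, MBD3 at 6.94 and CTCF at 6.03. The HOXC sites had no TET3 peak in BPK-25. In all 13 of 69 TET3 peaks were retained (18.8%, interval 10.4 to 30.1), against 31.9%.

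TET3 peaks of BPK-25 were found at a larger share of the strong CTCF sites of DMSO than of the weaker ones. Of the 31 peaks, 18 were new (58.1%, interval 39.1 to 75.5), against 65.8%, and 9 of these 18 overlapped a DMSO CTCF peak (against 54.4% of new peaks in the list). Of the 44 strong CTCF sites, 8 had a TET3 peak in DMSO (18.2%, interval 8.19 to 32.7), against 7.54%, and 14 had one in BPK-25 (31.8%, interval 18.6 to 47.6), against 11.1%. Of the 80 weaker CTCF sites, 19 had TET3 in DMSO (23.8%, against 8.50%) and 3 in BPK-25 (3.75%, against 3.44%).

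Some of these TET3 peaks lay where CTCF and MBD3 had no peak in BPK-25. Of the 13 strong CTCF sites without either, 6 had a BPK-25 TET3 peak (46.2%, interval 19.2 to 74.9), against 6.23%. The limit on TET3 overlap by position alone applies to this comparison as well. In HOXB, chr17:46695897-46696613 had CTCF at 153 in DMSO and TET3 at 7.16 in BPK-25 with summits 15 bp apart, and chr17:46748822-46749551 CTCF at 119 and TET3 at 6.07, 2 bp apart. In HOXA, chr7:27175984-27176403 had CTCF at 104 and TET3 at 5.29, 1 bp apart, and the site of fold 116 named above had TET3 at 4.54, 92 bp away. In HOXC, chr12:54426294-54426762 had 109 and 4.54, 7 bp apart, and in HOXD chr2:176983491-176984067 had 57.7 and 5.67, 68 bp apart. TET3 was already called in DMSO at 2 of these 6 sites: at chr12:54426294-54426762 with a fold of 4.96, above its BPK-25 value, and at chr17:46748822-46749551 with 3.24. The other 4 had no TET3 peak in DMSO. TET3 pileups in BPK-25 at these 6 sites were small, between 11 and 18 fragments.

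**Figure D5:**
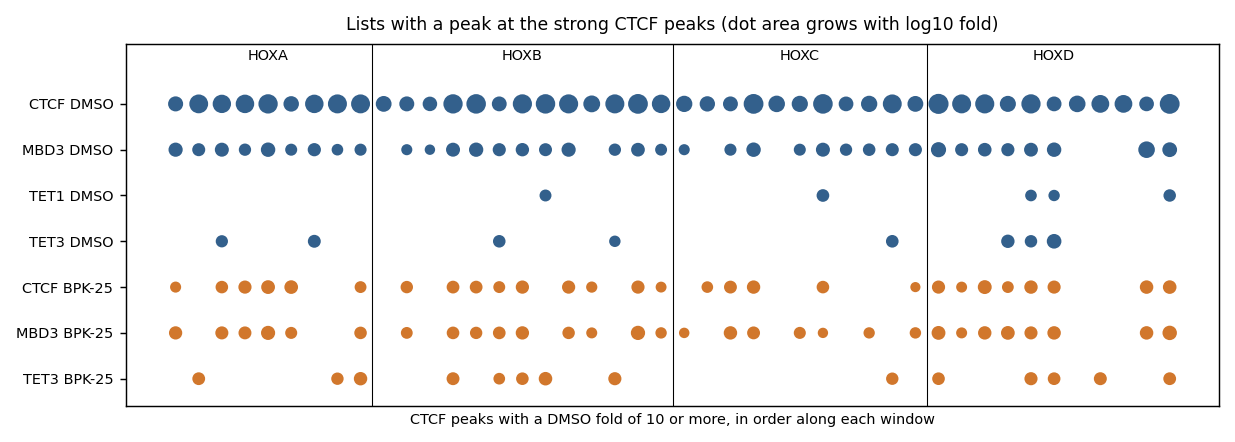
The 44 CTCF peaks with a DMSO fold of 10 or more, in chromosomal order within each cluster (x), with a dot for each list that has an overlapping peak (blue DMSO, orange BPK-25); dot area grows with log10 of the fold. The 14 TET3 dots of BPK-25 include 6 above which neither the CTCF nor the MBD3 row of BPK-25 has a dot.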

How the data were processed

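The files were 10 peak lists for 5 targets, in narrowPeak format and on hg19. The submitters' processing notes name MACS2 2.1.2, a peak caller, beside Bowtie2 2.3.4, SAMtools 1.9, bedtools 2.25.0 and FastQC 0.11.7, without settings. Each deposited list gives, per summit, a score, a fold enrichment (the ratio of pileup to local background, solved here with 1 added to each), -log10 p, -log10 q and an offset. Replicates of a group share 1 list in their labels; pooling, and input as control, are read from the list names and not otherwise stated.

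Overlapping or touching intervals were merged, keeping the summit with the highest -log10 q. Pileup and local background were solved from the deposited fold and Poisson -log10 p; of pileups below 200, 100.0% were whole numbers to within 0.02. The lowest background of a list was its genome background. Peaks overlapping by at least 1 bp counted as shared, and retained means that BPK-25 had an overlapping peak for that target. Procedures were tested on simulated data (Python 3.11.15, pandas 2.3.3, SciPy 1.17.1). Named regions were, per cluster, the 3 strongest CTCF and MBD3 peaks by -log10 q in DMSO, the strongest with no peak of that target within 1000 bp in the other treatment, and TET peaks (the 3 strongest where a list had over 10). Members and lists were chosen with earlier results of these data known. Peak sequences and hg19 gene positions were not used here.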

Additional observations from a re-analysis of the deposited data

How the results depend on the processing

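Of 97 values recomputed under other settings, 60 stayed within the interval of the reported value, 31 moved outside it and 6 reversed. The reversals were CTCF number at a -log10 q of at least 10 (ratio 0.659), MBD3 number with intervals within 500 bp merged (1.06), and MBD3 number in single clusters: HOXB merged (1.20), and HOXD merged (1.50), at a -log10 q of at least 5 (1.12) and with windows extended by 20 kb (1.11). At a -log10 q of at least 5, CTCF number moved to a ratio of 1.20, CTCF retention to 47.6%, MBD3 retention to 47.9%, CTCF peaks with MBD3 in DMSO to 77.7%, and median folds to 4.87 (CTCF, BPK-25), 4.99 (MBD3, BPK-25) and 4.92 (MBD3, DMSO). At 10, number ratios moved to 0.585 for MBD3 (HOXB 0.531, HOXD 0.588) and 0.188 for TET3, CTCF retention to 29.3%, MBD3 retention to 40.4%, and CTCF peaks with MBD3 to 58.5% in DMSO and 59.3% in BPK-25, the last under the list's 70.7%. Median folds were then 12.2 and 6.28 for CTCF and 6.32 and 5.98 for MBD3, in DMSO and BPK-25. No TET1 peak of the windows passed that limit, so it gave no ratio. Merging within 500 bp moved the CTCF median in BPK-25 to 4.39, the MBD3 median in DMSO to 4.44, MBD3 retention to 68.3% (above the list's 61.9%) and CTCF peaks with MBD3 in BPK-25 to 90.4%. With 50% of a peak covered, retention was 48.4% for CTCF and 33.7% for MBD3. With summits within 200 bp it was 51.6% and 39.1%, and CTCF peaks with MBD3 were 65.3% in DMSO and 74.8% in BPK-25. With equal numbers of strongest peaks retention was 46.0% and 29.9%. The causes were not tested. The same minimum pileup in both lists removed no CTCF or MBD3 peak of the windows. The lowest pileups over background in DMSO and BPK-25 were already close, 2.99 and 3.10 for CTCF and 3.11 and 3.12 for MBD3. That setting could therefore not change those results and is no check on depth, although its values count among the 60. In DMSO it took TET1 peaks from 16 to 15 and TET3 peaks from 69 to 67. No paired analysis was possible because each list pools its replicates, and leaving out a replicate was not possible for the same reason.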
